A study of Homo sapiens with 8 samples.

Results

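Serum amyloid A and complement genes were followed in BEAS-2B cells, an established line of virus-transformed human bronchial epithelium, given a JunD plasmid or an empty vector ahead of exposure to cigarette smoke extract (CSE). The 10 genes were chosen by name, with earlier results of these data known. They comprise 2 serum amyloid A genes (SAA1, SAA2), 4 activating complement components (C3, CFB, C1R, C1S) and 4 complement inhibitors (SERPING1, CD46, CD55, CD59). All 10 were among the 29534 gene names of the deposited expression table. One group carried pcDNA3.1-JunD and the other the empty pcDNA3.1 vector, each for 12 h by lipid transfection, and both were exposed to CSE for 24 h, with 3 libraries each. The sources used here do not give the smoke concentration of the RNA cultures, and no RNA library came from cells without smoke or without transfection. Binding of JunD was mapped in cells exposed to 8% CSE for 24 h, with no transfection named, in 1 precipitated and 1 input library. The series asks how JunD, a subunit of the AP-1 transcription factor, regulates smoke-induced airway inflammation.

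Complement is a cascade of plasma proteins that marks and lyses targets. C1R and C1S are the serine proteases of the first component of the classical pathway, factor B (CFB) supplies the protease of the alternative pathway convertase, and C3 is the component on which all pathways converge. SERPING1 inhibits C1R and C1S in the fluid phase, whereas CD46, CD55 and CD59 protect the cell's own membrane. CD46 is a cofactor for cleavage of deposited C3b and C4b, CD55 speeds the decay of convertases, and CD59 blocks assembly of the membrane attack complex. Serum amyloid A is an acute phase apolipoprotein, not a complement component, induced by cytokines such as IL-6 and IL-1. The liver is the main source of these plasma proteins, and airway epithelium also makes them.

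The libraries held 15967955 to 29617655 assigned reads. Mitochondrial genes took 3.88% to 4.73% of these with JunD and 5.22% to 5.31% with the empty vector, ranges that do not overlap, and the part of this difference in the results was not tested. JUND was at 63.5 to 103 RPKM (reads scaled to exon length in kilobases and to the assigned reads of the library) in the JunD libraries and at 10.5 to 13.2 RPKM in the empty-vector libraries. On the second principal component (11.8% of the variance) JunD replicate 3 lay at -22.2, against 10.8 and 11.7 for the other JunD libraries, so results are given below without it where that changes a call. Of the 8 airway epithelial markers listed, KRT7, KRT8 and KRT18 reached 1 RPKM, and their log2 fold changes were -0.29, -0.65 and -0.38 (each called lower). EPCAM, CDH1, KRT5, KRT19 and TP63 held at most 25 reads over the 3 libraries of a group. Hepatocyte markers summed to at most 0.088 RPKM in any library, with ALB at 1 read with JunD and 0 with the empty vector. Endothelial markers summed to at most 0.066 RPKM. The leukocyte list summed to 158 to 187 RPKM with JunD and 36.95 to 41.4 RPKM with the empty vector. Nearly all of this was CD68, which shares 85.8% of its exon length with other genes, while PTPRC, which defines leukocytes, held 0 and 3 reads. Fibroblast markers summed to 2.80 to 3.41 RPKM with JunD and 6.25 to 7.62 RPKM with the empty vector. The part of these markers in the results below was not tested. In bulk RNA, fewer cells of a type and less RNA per cell cannot be told apart.

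Short stretches upstream of the starts are shown because some members moved together and because 1 of them, CD55, carried a JunD peak at its start. The CD55 stretch printed ends before that peak (chr1:207321582-207321954, authors' q-value 0.072), so neither the stretch nor its marked match lies in it. The RefSeq promoter table (GRCh38.p14) held 10 windows for 5 of the members, namely CFB, C1R, CD46, CD55 and CD59, and the 250 bases before each start were searched on both strands. Capitals mark matches to TGANTCA (AP-1), TTGCNNAAT (C/EBP), GGNNTTNCC (NF-kB), TTCNNTTTC (interferon-stimulated response element, ISRE) or TTCNNNGAA (gamma-activated site, GAS), and none of the matches printed overlap. Only bases outside the exons of the deposited table, or 30 bases around a match inside one, are printed, all 5′ to 3′ on the strand of the gene.
CFB ISRE match, chr6:31945946-31945975, plus strand: cttctgcagtTTCTGTTTCcttgactggca
CFB GAS match, chr6:31945993-31946022, plus strand: cgcttggatgTTCCGGGAAagtgatgtggg
C1R inner start, GAS match, chr12:7091960-7091989, minus strand: gccagtcctaTTCCTGGAAggggaggggag
CD55, chr1:207321428-207321507, plus strand: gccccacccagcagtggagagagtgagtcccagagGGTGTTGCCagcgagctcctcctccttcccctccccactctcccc
CD59, chr11:33736480-33736729, minus strand: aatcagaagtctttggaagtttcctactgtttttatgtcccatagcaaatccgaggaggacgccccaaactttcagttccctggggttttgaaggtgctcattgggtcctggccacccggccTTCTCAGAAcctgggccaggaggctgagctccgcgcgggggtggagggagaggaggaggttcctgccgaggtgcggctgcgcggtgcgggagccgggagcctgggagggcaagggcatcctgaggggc
CD46, chr1:207751788-207752037, plus strand: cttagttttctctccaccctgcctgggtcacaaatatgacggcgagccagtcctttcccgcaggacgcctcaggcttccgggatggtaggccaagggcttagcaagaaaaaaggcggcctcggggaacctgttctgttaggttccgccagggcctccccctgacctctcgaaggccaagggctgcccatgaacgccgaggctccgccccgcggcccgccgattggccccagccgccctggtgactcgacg

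The CFB promoter held both an ISRE and a GAS match, at -139 to -131 and -92 to -84 bases from the RefSeq start. A GAS match stood in the inner C1R window (-86 to -78) and in the outer CD59 window (-128 to -120), and the outer C1R window held no match. CD55 held 1 match to the NF-kB letters (-215 to -207), and neither CD46 window held any. At 2 inner starts of CD59 there were 1 C/EBP match and 2 AP-1 matches, the latter starting at -117 and -23 bases. Of all 35116 promoters of the same length in the table, 6.88% held an ISRE match, 6.57% a GAS match, 6.57% an AP-1 match, 15.0% an NF-kB match and 2.39% a C/EBP match. These shares are per window, whereas 10 windows were searched for 5 members, so a member with several windows had several chances of a match. A match describes the letters only, and its relation to the changes of the members was not tested.

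The main comparison was that of JunD against the empty vector, tested with limma on log2(RPKM + 0.5) over 13379 genes with a mean of at least 1 RPKM. A call means that the two-sided p, adjusted by Benjamini-Hochberg, was below 0.05. Both serum amyloid A genes and the 4 activating complement components rose. Of the inhibitors CD55 rose, CD46 and CD59 were not called, and SERPING1 lay below the expression filter. These 7 calls among 9 tested members stand beside 31.5% of all tested genes called higher and 14.7% called lower. Because the members were chosen with earlier results of these data known, a share above that of all genes supports nothing. The same holds for the gene lists below. Higher calls made up 68.2% of all calls, but 47.8% after scaling by median of ratios and 45% after quantile normalization, which lowered the median log2 fold change of all genes by 0.12 and 0.13. The same 7 members were called higher under both scalings. Of all tested genes, 3.64% were called with a log2 fold change of at least 1, as were all 7 called members, and 0.83% with at least 2, as were SAA1, SAA2, CFB and C1R. A fold change of at least 3 on that scale was found for 0.396%, with SAA1 and CFB among them. SAA1, SAA2 and C3 passed the filter only through the JunD libraries, so their calls could hardly have gone otherwise and their number supports nothing. In all 10 members the libraries of the groups did not overlap, 9 higher and 1 lower with JunD, as also in 38.8% of tested genes in the higher and 18.5% in the lower direction. The exact permutation p of each member was 0.1, two-sided, the smallest that 3 against 3 libraries allow. Whether the libraries stem from separate cultures is not in the labels. The p-values thus rest on the spread among 3 libraries of each group, part of which may be technical.

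**Figure D1:**
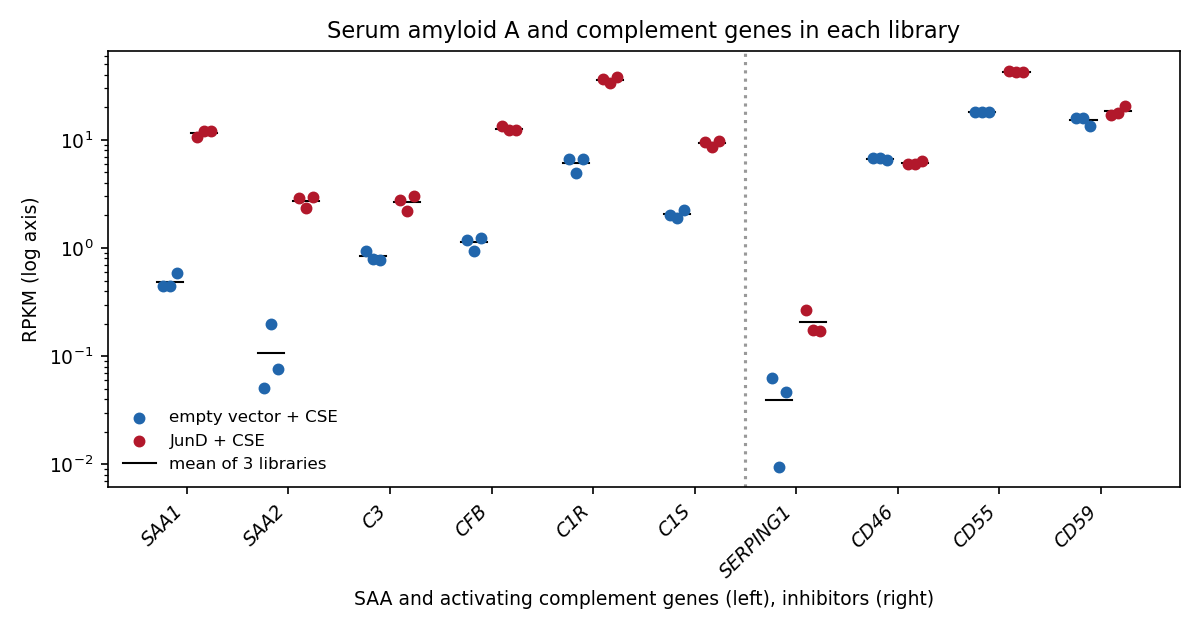
RPKM on a log axis for each of the 10 genes, with 1 point per library (blue, empty vector + CSE; red, JunD + CSE) and a line at the mean of 3 libraries. The red points lie above the blue points in 9 genes and below them in CD46, and SERPING1 is the lowest gene in both groups.

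SAA1 (chromosome 11, 18266174 to 18269977, plus strand) was at 10.6, 12.0 and 12.2 RPKM in JunD replicates 1 to 3 and at 0.442, 0.441 and 0.585 RPKM in empty-vector replicates 1 to 3. The empty-vector values rested on 6, 10 and 8 reads. The mean rose from 0.490 ± 0.083 to 11.6 ± 0.874 RPKM (SD, n = 3 each), a 23.7-fold ratio and a log2 fold change of 3.61 (standard error 0.09, limma adjusted p = 1.2e-06). It ranked 30 among the 13379 genes by log2 fold change, the highest rank of any member.

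SAA2, the neighbouring and near-identical copy on the minus strand (chromosome 11, 18239223 to 18248643), was at 2.91, 2.36 and 2.94 RPKM with JunD and at 0.051, 0.197 and 0.075 RPKM with the empty vector. The reads were 107, 84 and 116 against 2, 13 and 3, so the control level was set by few reads and empty-vector replicate 2 stood above the other two. The log2 fold change was 2.42 (standard error 0.13, limma adjusted p = 4.1e-05), and the ratio of mean RPKM was 25.4, or 43.4 without empty-vector replicate 2. The offset of 0.5 RPKM compresses such low genes. With limma's voom on reads recovered from the RPKM, an alternative chosen after seeing the data, the log2 fold change was 4.61 for SAA2 and 4.51 for SAA1. SAA2 shares 12.0% of its exon length with the readthrough entry SAA2-SAA4, which was at 6.15 to 7.81 RPKM with JunD and 0.151 to 0.545 RPKM with the empty vector. SAA4, the constitutive liver form, held 1 read in all. The sources used here do not say how reads of such copies and overlapping entries were assigned, so the split among SAA1, SAA2 and SAA2-SAA4 is uncertain.

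Among the complement proteases, C1R (chromosome 12, 7080209 to 7092607, minus strand) had the highest level. Its values were 36.2, 33.5 and 37.8 RPKM with JunD and 6.71, 4.95 and 6.69 RPKM with the empty vector. C1R rose by 2.47 on the log2 scale (standard error 0.12, limma adjusted p = 2.3e-05). C1S, its partner in the C1 complex (chromosome 12, 6988259 to 7071032, plus strand), was at 9.50, 8.53 and 9.77 RPKM with JunD and 2.02, 1.91 and 2.23 RPKM without it, and its log2 fold change was 1.94 (standard error 0.08, limma adjusted p = 1.0e-05). Empty-vector replicate 2 was the lowest library of both genes in its group, and JunD replicate 2 in the other. The C1R to C1S ratio of RPKM was 3.87 ± 0.056 with JunD and 2.97 ± 0.372 with the empty vector (SD, n = 3 each), and the ranges, 3.82 to 3.93 and 2.59 to 3.33, did not overlap. C1R shares 11.8% of its exon length with C1RL. C1S shares 3.54% of its exon length with the clone-named entry RP3-461F17.3. That entry held 5745 reads with JunD and 6457 with the empty vector, against 3014 and 854 for C1S. How reads in the shared stretches were assigned is not known here, so the C1S level, its fold change and the C1R to C1S ratio are uncertain to that extent.

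CFB (chromosome 6, 31945650 to 31952084, plus strand) was at 13.4, 12.3 and 12.4 RPKM with JunD and at 1.19, 0.946 and 1.24 RPKM with the empty vector. CFB rose by 3.03 on the log2 scale (standard error 0.09, limma adjusted p = 2.0e-06), rank 52 of all tested genes. CFB shares 45% of its exon length with the clone-named entry XXbac-BPG116M5.17, with 3001 reads in the JunD group and 342 in the other, against 3187 and 356 for CFB. The reads of the 2 entries cannot be told apart where they overlap.

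C3 (chromosome 19, 6677704 to 6730562, minus strand) changed least among the activating components. It was at 2.79, 2.18 and 3.0 RPKM with JunD and 0.948, 0.787 and 0.773 RPKM with the empty vector, on 290 to 443 and 115 to 194 reads per library. The log2 fold change was 1.23 (standard error 0.12, limma adjusted p = 4.3e-04), and the ratio of mean RPKM was 3.18. The CFB to C3 ratio was 4.13 to 5.63 with JunD and 1.20 to 1.61 with the empty vector, so the ranges did not overlap.

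Of the membrane inhibitors, CD55 (chromosome 1, 207321508 to 207386804, plus strand) was the most abundant member in both groups. Its values were 43.8, 42.3 and 42.6 RPKM with JunD and 18.2, 18.2 and 18.3 RPKM with the empty vector, a narrow spread in each group. CD55 rose by 1.21 on the log2 scale (standard error 0.05, limma adjusted p = 7.5e-06). CD55 and C3 had similar fold changes on this scale, at ranks 325 and 307, although their levels differed. On other scales C3 changed more, with a ratio of mean RPKM of 3.18 against 2.35 for CD55. With voom the log2 fold changes were 1.67 for C3 and 1.23 for CD55.

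CD59 (chromosome 11, 33698261 to 33736445, minus strand) was at 17.1, 17.7 and 20.7 RPKM with JunD and 16.0, 16.1 and 13.4 RPKM with the empty vector. JunD replicate 3 was the highest and empty-vector replicate 3 the lowest. The log2 fold change was 0.28 (95% interval 0.04 to 0.52, limma adjusted p = 0.059). CD59 was called higher in TPM (0.35, limma adjusted p = 0.023) and with voom (0.29, limma adjusted p = 0.032), and over its 15 alternatives the adjusted p was 0.023 to 0.16.

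CD46 (chromosome 1, 207752057 to 207795513, plus strand) was at 5.99, 5.97 and 6.38 RPKM with JunD and 6.79, 6.78 and 6.57 RPKM with the empty vector, the only member with the JunD libraries below the others. The log2 fold change was -0.13 (95% interval -0.26 to 0.01, limma adjusted p = 0.11). It was called lower after scaling by median of ratios (-0.25, limma adjusted p = 0.0070), after quantile normalization (-0.27, limma adjusted p = 0.0047) and without JunD replicate 3 (-0.15, limma adjusted p = 0.046). Over all 15 alternatives its adjusted p was 0.0047 to 0.44.

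SERPING1 (chromosome 11, 57597387 to 57614853, plus strand) was close to undetected. It was at 0.269, 0.174 and 0.172 RPKM on 16, 10 and 11 reads with JunD and at 0.063, 0.009 and 0.047 RPKM on 4, 1 and 3 reads with the empty vector. In a fit over 19854 genes with a mean of at least 0.1 RPKM, where 23.7% of genes were called higher, its log2 fold change was 0.38 (standard error 0.10, limma adjusted p = 0.032). That call was lost without JunD replicate 2 (adjusted p = 0.062), without empty-vector replicate 1, 2 or 3 (0.069, 0.11 and 0.079), after quantile normalization (0.062) and with the replicate block (0.075), all by limma. Its mean was 0.205 RPKM with JunD and 0.040 RPKM with the empty vector. SERPING1 thus passed the filter of 0.1 RPKM only through the JunD libraries, so its call there supports nothing. Without JunD replicate 1 it lay under the filter. The size also depended on the scale, from 0.21 with an offset of 1 RPKM to 2.63 with voom. C1R, 1 of the proteases that SERPING1 inhibits, had 135 to 220 times the RPKM of SERPING1 in the JunD libraries and 107 to 528 times in the empty-vector libraries.

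**Figure D2:**
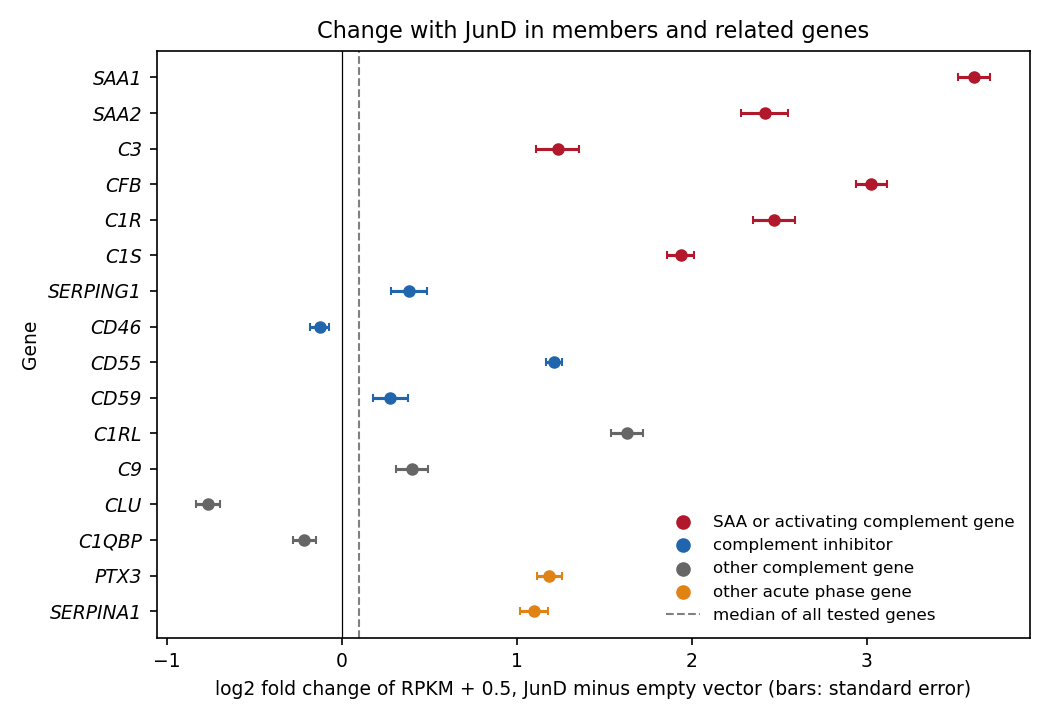
Log2 fold change of RPKM + 0.5 (JunD minus empty vector, 3 libraries each) with bars of 1 standard error for the 10 genes and for the other complement and acute phase genes that passed the filter. SERPING1 is from the fit with a mean of at least 0.1 RPKM, and the dashed line marks the median of all tested genes, 0.10. The SAA and activating complement genes lie between 1.23 and 3.61, and the inhibitors between -0.13 and 1.21.

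The median log2 fold change was 2.44 for the 6 SAA and activating complement genes and 0.28 for the 3 inhibitors that passed the filter, beside 0.10 for all tested genes. The filter set part of this contrast, since it kept SAA1, SAA2 and C3 through the JunD libraries alone and left SERPING1 out. The median was 2.47 over CFB, C1R and C1S, which reached 1 RPKM in both groups, and 0.33 over all 4 inhibitors with SERPING1 from the lower-filter fit. SERPING1 entered that fit only through the JunD libraries, so the median of 0.33 is not free of the filter either. Summed over C3, CFB, C1R and C1S, the level was 62.0, 56.5 and 63.0 RPKM with JunD and 10.9, 8.59 and 10.9 RPKM with the empty vector. The 4 inhibitors summed to 67.2, 66.1 and 69.8 RPKM with JunD and to 41.0, 41.0 and 38.4 RPKM with the empty vector. Activating components therefore stood at 0.893 ± 0.035 of the inhibitor sum with JunD and at 0.253 ± 0.039 with the empty vector (SD, n = 3 each). Both sums were higher in every JunD library, and in every library the inhibitor sum was above that of the 4 activating components. Clusterin (CLU), described below, is not among the 4 inhibitors. Its mean was 44.7 RPKM with the empty vector and 26.1 RPKM with JunD, so sums, ratios and shares depend on which inhibitors are listed. With SAA1 and SAA2 added, the activating side was at 1.07 to 1.12 of the inhibitor sum with JunD and at 0.225 to 0.302 with the empty vector, so the order of the sums depends on whether the SAA genes, which are no complement components, are counted. This ratio is taken within a library, so scaling a library as a whole does not move it, and leaving out a library moved it to 0.878 to 0.913 with JunD and 0.237 to 0.275 with the empty vector.

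**Figure D3:**
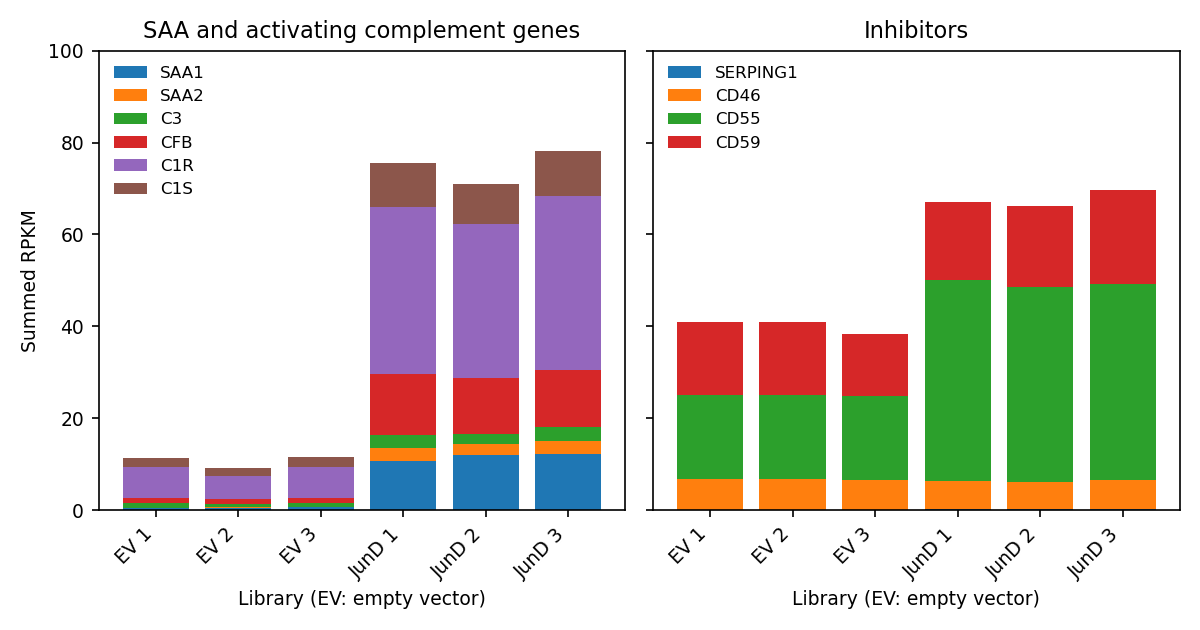
Summed RPKM in each library for the SAA and activating complement genes (left) and for the inhibitors (right), with each gene as a segment. C1R is the largest segment on the left in every library, and CD55 is the segment that grows most on the right, while SERPING1 is too low to see.

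The shares of CD55 and CD46 in the inhibitor sum differed between the groups, as did the CFB to C3 ratio given above. C1R held 59.3% ± 0.79 of the 4 activating components with JunD and 60.2% ± 2.28 with the empty vector (SD, n = 3 each), ranges that overlap. CD55 held 63.4% ± 2.14 of the inhibitor sum with JunD and 45.5% ± 1.96 with the empty vector, and the share of CD46 was 9.03% ± 0.11 and 16.7% ± 0.33. By level per exon length, the order with the empty vector was CD55, CD59, CD46, C1R, C1S, CFB, C3, SAA1, SAA2 and SERPING1, in which CD46 and C1R, CFB and C3, and SAA2 and SERPING1 overlapped between libraries. With JunD it was CD55, C1R, CD59, CFB, SAA1, C1S, CD46, SAA2, C3 and SERPING1, in which SAA2 and C3 overlapped.

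Other genes of the cascade were mostly near the detection limit. Of 50 further complement genes listed, 29 were in the table, and 25 of these were below the filter. Of the 4 tested, 2 rose and 2 fell, beside 31.5% of all tested genes called higher and 14.7% called lower. The table lists no gene without a read, so the 21 unmatched genes, among them C1QA, C1QB and C1QC, which complete the C1 complex, have no value here. C1RL, a C1R-like protease that shares 17.5% of its exon length with other genes, including C1R, rose from 3.57 ± 0.277 to 12.1 ± 1.27 RPKM (log2 fold change 1.63, limma adjusted p = 4.6e-05). C9, a pore-forming component, shares 4.03% of its exon length with DAB2 and held 332 reads with the empty vector and 360 with JunD. Its level was 1.72 ± 0.198 RPKM with the empty vector and 2.43 ± 0.115 RPKM with JunD. C9 rose by 0.40 on the log2 scale (limma adjusted p = 0.011), a call lost after quantile normalization (adjusted p = 0.073). Clusterin (CLU), which restrains the terminal complex in fluid, was at 44.7 ± 3.14 RPKM with the empty vector and 26.1 ± 0.846 RPKM with JunD and fell by 0.76 (log2 scale, limma adjusted p = 2.6e-04). C1QBP, which binds C1q and sits mainly in mitochondria, fell by 0.21 (limma adjusted p = 0.033). The C1QBP call was lost without JunD replicate 1 or 2 or empty-vector replicate 1 or 2 (adjusted p = 0.084, 0.10, 0.11 and 0.12), in TPM (0.12), without the filter (0.057) and with the replicate block (0.13). Factors of the early cascade stayed low, with C2 at 32 and 63 reads, C4A at 48 and 59 reads and C4B, its near-identical copy, at 81 and 74 reads with JunD and the empty vector, respectively. How reads of such copies were assigned is not known here, so the levels of C4A and C4B are uncertain. CFI, a fluid-phase protease that inactivates C3b, was rarer still, with 3 reads in the JunD group against 0.

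Acute phase genes other than SAA were likewise few. Of 25 listed, 13 were in the table and 2 passed the filter, and both rose, beside 31.5% of all tested genes. PTX3, a long pentraxin, went from 9.29 ± 0.667 to 21.7 ± 1.09 RPKM (log2 fold change 1.19, limma adjusted p = 5.4e-05), and SERPINA1, the elastase inhibitor alpha-1-antitrypsin, from 1.66 ± 0.134 to 4.13 ± 0.237 RPKM (1.10, limma adjusted p = 1.2e-04). The other 11 were below the filter. Of these ceruloplasmin (CP), a copper-binding liver product, had the most, with 187 reads (0.51 RPKM) in the JunD group and 226 reads (0.48 RPKM) in the other. LCN2 held 2 and 14 reads, and none of the remaining 9, which include HP, SERPINA3 and FGB, held more than 10 reads in a group.

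Of 35 genes that encode inducers, transducers and receptors for these genes, 25 were tested, 19 rose, 1 fell and 5 were not called, beside 31.5% of all tested genes called higher and 14.7% lower. IL6, IL1B, IL1R1 and NFKBIZ entered only through the JunD libraries, and the median log2 fold change was 0.56 with them and 0.48 over the other 21 tested genes, against 0.10 for all tested genes. After scaling by median of ratios 17 were called higher and 3 lower, and after quantile normalization 14 and 5. Without JunD replicate 3 there were 18 and 4, and with voom 19 and 3. Among those with the smallest adjusted p were IRF9 (3.20), IRF1 (1.37), STAT2 (1.86), IL6 (3.39), IL1B (1.67), IL1R1 (1.15) and IL6ST (0.77), with the log2 fold change in parentheses. STAT2, IRF1 and IRF9 transduce interferon signals, and IL6ST is the shared receptor chain of the IL-6 family. IRF9 shares 48.4% and IL6 20.7% of its exon length with another gene. These genes and the 10 members were compared over the same libraries, and no relation between them was tested.

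By Euclidean distance over the 6 libraries on log2(RPKM + 0.5), each gene centred on its empty-vector mean, the protein-coding gene nearest to SAA1 was KLF4 (distance 0.21), to CFB HERC6 (0.20), to C1R ATF3 (0.18), to C1S LGALS3BP (0.16), to C3 APOBEC3G (0.17) and to CD55 PNPT1 (0.09). The nearest to CD59 was LSM1 (0.07) and to CD46 CLTC (0.04). The measure follows mainly the difference between the groups, so it lists genes of similar size of change.

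The authors' peak list was then read around the starts of the members, taking the outermost exon in the table as the start. Within 1 kb, 1 of 10 members had a peak, CD55, beside 7.23% of 29417 genes. That peak (chr1:207321582-207321954) began 74 bp downstream of the outermost start and covered the RefSeq start, with the authors' fold enrichment of 3.58, pileup of 11 and q-value of 0.072. Within 5 kb, CFB and C1R joined CD55, beside 22.2% of all genes. The CFB peak ended 1.18 kb upstream of the start (fold enrichment 2.73, q 0.39), and the C1R peak lay 3.07 kb downstream, within the gene (3.65, q 0.16). SAA1 and SAA2 had no peak closer than 20.1 and 33.9 kb, and their windows share peaks.

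The other members had their nearest peak at 14.3 kb for C3, 12.8 kb for C1S and CD46, 6.85 kb for SERPING1 and 28.1 kb for CD59. Every member had a peak within 50 kb, as did 90.3% of all genes, and 29 entries over the 10 windows had fold enrichments of 2.22 to 4.30. None had a q-value below 0.05, which 2.60% of the 61360 listed peaks had. Within 1 kb, 0.418% of all genes had a peak of that q-value and 0.775% one of fold enrichment of at least 4, against 0 of 10 members for each. Counting a peak only where its centre fell within 1 kb gave CD55 again, beside 6.48% of all genes. RefSeq places the starts of C3 and C1S further inside the gene (at bases 6720650 and 7060718), and from those starts the nearest peaks were 4.38 and 28.5 kb away. Over the gene bodies, C3 (52.9 kb) spanned 4 listed peaks and CD55 (65.3 kb) 2. C1R (12.4 kb), SERPING1 (17.5 kb), CD46 (43.5 kb) and CD59 (38.2 kb) spanned 1 each. SAA1 (3.8 kb), SAA2 (9.4 kb), CFB (6.4 kb) and C1S (82.8 kb) spanned 0. The gene spans differ and the share of all genes was not computed, so these counts are not read as a difference in binding. With 1 library and 1 input there is no replicate of these values, and peaks and RNA came from cells that may differ in JunD level and smoke dose.

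**Figure D4:**
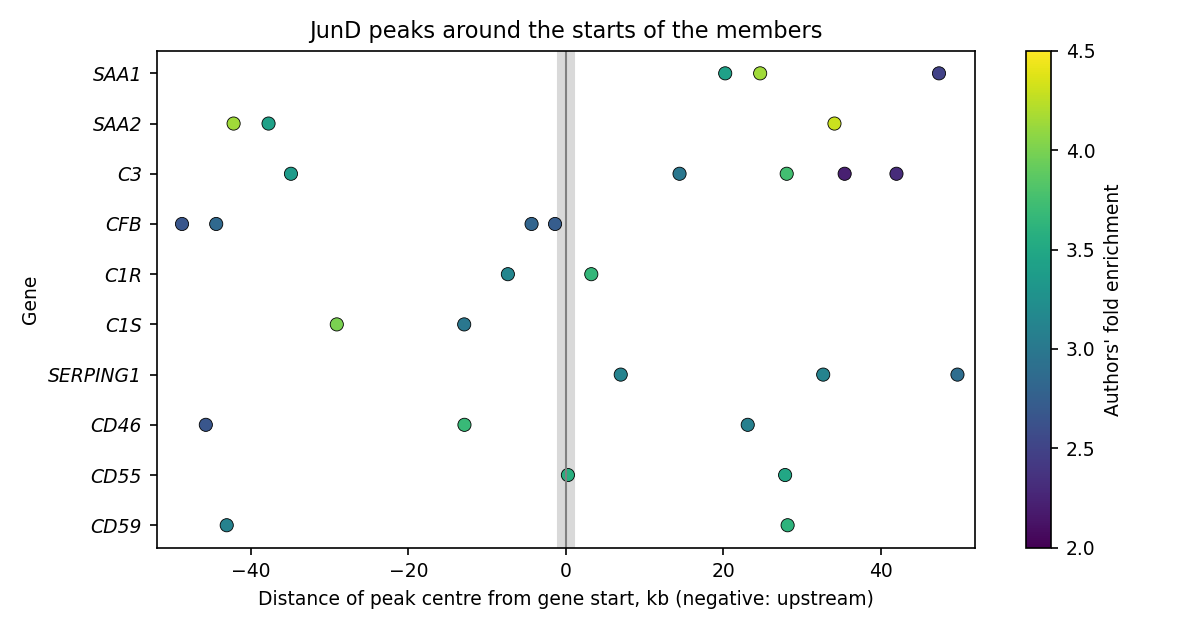
Peaks of the authors' list within 50 kb of each start, by the distance of the peak centre in kb (negative is upstream on the strand of the gene), coloured by the authors' fold enrichment. The grey band marks 1 kb either side, and the only point inside it belongs to CD55.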

How the data were processed

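RNA was sequenced in 6 libraries (3 with JunD, 3 with the empty vector), and JunD ChIP in 1 library with 1 input. Expression was deposited by the authors as RPKM with exon coordinates and lengths. Peaks were deposited with a fold enrichment (ratio over background), a p-value, a q-value and a pileup signal, per the file headers. The submitters' processing notes list Trimmomatic 0.36, STAR 2.5.3a, featureCounts (Subread 1.5.1), MACS2 2.1.1, bedtools 2.25.0 and build GRCh38, without roles. Annotation release and strand setting: not given in the sources used here. RPKM times exon length, divided by the smallest such product in the library (the value of 1 read), gave whole reads for 100% of values (tolerance 0.01 read).

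Here log2(RPKM + 0.5) was fitted with limma 3.58.1 (intensity trend, R 4.3.3), for genes with a mean of at least 1 RPKM, adjusted by Benjamini-Hochberg over all of them, and the script was tested on simulated data. Members and lists were chosen with earlier results of these data known. Named are all members, JUND, called genes of each list (up to 8 by adjusted p) and the nearest genes by pattern, except a few that are not reported here. Alternatives were other offsets, filters and scalings, a replicate block, voom and each library left out.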

Additional observations from a re-analysis of the deposited data

How the results depend on the processing

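Over 15 alternatives, SAA1, SAA2, C3, CFB, C1R, C1S and CD55 were called higher in each. All genes called higher numbered 4213 (3148 to 4322 with a library left out), and 2657 after quantile normalization, and those called lower numbered 1963 (1335 to 2651), against 1188 with the replicate block, 3143 after scaling by median of ratios and 3244 with quantile normalization. Members and inhibitors called lower numbered 1 (CD46, at -0.25 and -0.27) after median of ratios and quantile normalization, and 0 to 1 with a library left out (-0.15 to -0.11). Inhibitors called higher numbered 2 in TPM and with voom, where CD59 was at 0.35 and 0.29. They also numbered 2 with a mean of at least 0.1 RPKM and without a filter, where SERPING1 joined. SERPING1 passed the filter of 0.1 RPKM only through the JunD libraries. SERPING1 had 0.34 after quantile normalization, 0.38 with the block and 0.34 to 0.42 with a library left out. Of the wider complement list, 1 was called higher after quantile normalization, and 1 lower in TPM, without a filter and with the block, and 1 to 2 lower with a library left out. Of the inducers and receptors 1 was called lower, but 3 after median of ratios and with voom, 5 after quantile normalization, 0 with the block and 1 to 4 with a library left out. Members with a peak numbered 3 at 5 kb, 10 at 50 kb, 0 at fold enrichment of at least 4 and 0 at q below 0.05. Fits with a library left out have fewer samples, and for the other changes the cause was not tested. The block ended no call of a member other than SERPING1.

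Same-numbered libraries did not deviate together (correlations -0.17, -0.08 and -0.38 over 13379 genes), so the replicate block pairs libraries by number only. edgeR and DESeq2 were planned but not run, and voom was the only count-based fit. Control levels of SAA1, SAA2 and SERPING1 rest on 24, 18 and 8 reads, which limits their folds.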
